A study of Mus musculus with 17 samples.

Results

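The genes described here lie near each other on mouse chromosome 6 and were followed across all libraries of the series: Tes, Cav2, Cav1, Met, Capza2, St7, Ing3 and Ndufa5, which are 8 of the 23420 genes in the count table. They were chosen by symbol, and on their levels in these libraries, because they had been seen to be high together in single tumour lines. Their levels are therefore given as a description, with no test of the pattern that chose them. RNA was sequenced from 17 libraries of mouse cells from C57BL/6 knock-in mice with the R172H allele of p53, a tumour suppressor mutated in many cancers, and every group arose from such cells. The MSC group holds 3 libraries of bone marrow mesenchymal stem cells. TL1 holds 6 libraries of first-generation tumour lines from tumours of such cells, and TL2 holds 4 libraries of second-generation lines. The Mut clone group holds 2 clones of a first-generation line that keep mutant p53, and the KO clone group 2 clones labelled as p53 knockout. The labels do not say from which line the clones came, nor do they give the animal, sex or age behind a library. Libraries are called by group and by the number in their titles, with a letter where a group holds that number more than once (TL1 3a, TL1 3b). Plates coated with agar and a medium with the cytokine LIF were used for tumour-derived cells and another medium for MSC, so culture and cell origin cannot be told apart where those groups are compared. The labels do not state that libraries of a group are separate animals or cultures, and p-values here measure only how far these libraries spread, some of which may be technical.

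Met is the receptor tyrosine kinase for hepatocyte growth factor (HGF). In mesenchymal and muscle precursor cells it carries signals for growth, survival and migration through the adaptor Gab1 and the RAS-ERK and PI3K pathways, and its gene is amplified in some tumours. Cav1 and Cav2 encode caveolins, the proteins that coat caveolae, small pits of the plasma membrane that are abundant in fibroblasts, fat and muscle cells. The other genes have unrelated roles. Tes encodes testin, a LIM-domain protein of focal adhesions and stress fibres. Capza2 encodes an alpha subunit of the protein that caps the barbed ends of actin filaments. St7 is a gene named as a candidate suppressor of tumorigenicity, Ing3 encodes a subunit of the NuA4 histone acetyltransferase complex, and Ndufa5 a subunit of respiratory complex I.

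On GRCm38.p6, the build that matches the mm10 of the submitters' processing notes, Tes lies at chr6:17065149-17105825, Cav2 at chr6:17281185-17289130, Cav1 at chr6:17306335-17341328, Met at chr6:17463349-17573980, Capza2 at chr6:17637010-17666972 and St7 at chr6:17693901-17943023. Ing3 lies further on at chr6:21949571-21976038 and Ndufa5 at chr6:24518662-24527690. Ndufa5 is on the minus strand and the other 7 on the plus strand. The annotation puts antisense genes over Cav1 and Cav2 (Gm15581), Tes (Gm4876) and St7 (Gm26738). The strand setting of the counting is not given in the sources used here, so reads of these partners cannot be told apart from those of the member. The promoter sequences shown are those of Cav2, Cav1 and Ing3, members that were high in each of the 3 libraries described next and whose 250 bases before the start overlap no annotated exon. They come from RefSeq (GRCm38.p6, plus strand, chr6:17280935-17281184, chr6:17306085-17306334 and chr6:21949321-21949570), and capitals mark matches to the motifs searched, on either strand.

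Cav2 promoter: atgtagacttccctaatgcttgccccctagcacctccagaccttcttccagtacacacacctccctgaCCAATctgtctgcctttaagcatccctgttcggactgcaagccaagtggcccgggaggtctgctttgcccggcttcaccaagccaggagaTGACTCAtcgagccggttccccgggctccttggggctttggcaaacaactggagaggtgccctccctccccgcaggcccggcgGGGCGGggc
Cav1 promoter: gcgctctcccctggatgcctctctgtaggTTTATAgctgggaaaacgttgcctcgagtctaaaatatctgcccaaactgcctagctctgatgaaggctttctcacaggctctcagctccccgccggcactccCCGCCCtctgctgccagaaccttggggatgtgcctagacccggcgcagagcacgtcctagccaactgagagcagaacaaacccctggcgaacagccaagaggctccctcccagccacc
Ing3 promoter: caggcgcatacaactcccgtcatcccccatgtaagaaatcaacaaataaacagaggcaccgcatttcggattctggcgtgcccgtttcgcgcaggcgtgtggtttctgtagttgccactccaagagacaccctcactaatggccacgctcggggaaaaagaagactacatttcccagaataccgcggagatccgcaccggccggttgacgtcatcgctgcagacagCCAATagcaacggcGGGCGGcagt

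The letters GGGCGG, the GC box, were found in the 250 bases before the start of 5 of the 8 genes (Met, Cav1, Cav2, Tes and Ing3), and in 33.0% of 27025 promoters of the same length. The AP-1 motif TGANTCA was found before Met and Cav2, and in 6.85% of all promoters. The E-box CACGTG was found before Met (6.04% of all), CCAAT before Cav2, Tes and Ing3 (34.5%), TATAAA before Cav1 and St7 (13%), and the TEAD motif GGAATG before none of the 8 (12.6%). Both strands were searched, and none of these motifs contains another. For Met, the stretch free of annotated exon held 93 of the 250 bases (chr6:17463707-17463799), inside the gene span given above. Its AP-1 and E-box matches lay outside that stretch. For Tes and St7 such a stretch held 0 bases, so their matches lay outside it too. No motif was shared by all 8 genes, and a match is a description of the letters only.

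Library totals ran from 12215025 to 15962341 counts, and values are CPM, counts relative to a common library total, after TMM scaling of the totals (trimmed mean of M values). No 2 libraries of a group were as alike as sampling noise would make them. Trp53, the gene of p53 and the check of the clone labels, was at 278 and 357 CPM in the Mut clones and at 80.4 and 89.5 CPM in the KO clones, a log2 change of -1.89 (SE 0.226, edgeR adjusted p = 0.00259). The summed level of 8 mesenchymal stromal markers ran from 3340 to 7599 CPM in MSC, and from 286 to 1133 CPM in tumour lines. The defining blood and endothelial markers Ptprc, Cdh5, Tek and Emcn and the epithelial marker Epcam were under 1 CPM in all 17 libraries. Other markers of these lists were not all low. The summed level of 7 epithelial markers reached 1.70 CPM at most in MSC and 3.61 in KO clones, but 73.8 in TL1 (lowest library 8.38), 309 in TL2 (lowest 8.52) and 111 in Mut clones. That of 6 macrophage and haematopoietic markers reached at most 45.8 CPM (TL2 3), and that of 5 endothelial markers at most 3.45 CPM, in TL1. The part of these in the levels of the 8 genes was not tested. TL1 3a stands apart for the 8 genes, which took 1.53% of all its counts and 0.0740% to 0.294% of those of any other library, so results that rest on it are given with and without it.

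All 8 genes had their highest level in TL1 3a. A gene is called raised in a library here when it was at least 2-fold above the median of the other 16 libraries. In TL1 3a all 8 were raised, from 7.85-fold (Tes) to 17.2-fold (Met), with a median of 12.8-fold. In TL1 1b 7 of the 8 were raised, with a median over the 8 of 2.84-fold, and in TL2 1 4 were raised (Tes, Cav2, Cav1 and Ing3), with a median of 1.99-fold. None of the 8 was raised in any of the other 14 libraries, TL1 1a among them, which shares its number with TL1 1b and TL2 1. Of 12457 genes whose mean reached 1 CPM, 15.2% were raised in TL1 3a, 8.76% in TL1 1b and 7.08% in TL2 1. Since the genes were chosen on these levels, nothing is read from their counts against those shares. Bulk RNA does not separate a change in the number of cells from a change in RNA per cell, and the number of DNA copies was not measured here.

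**Figure D1:**
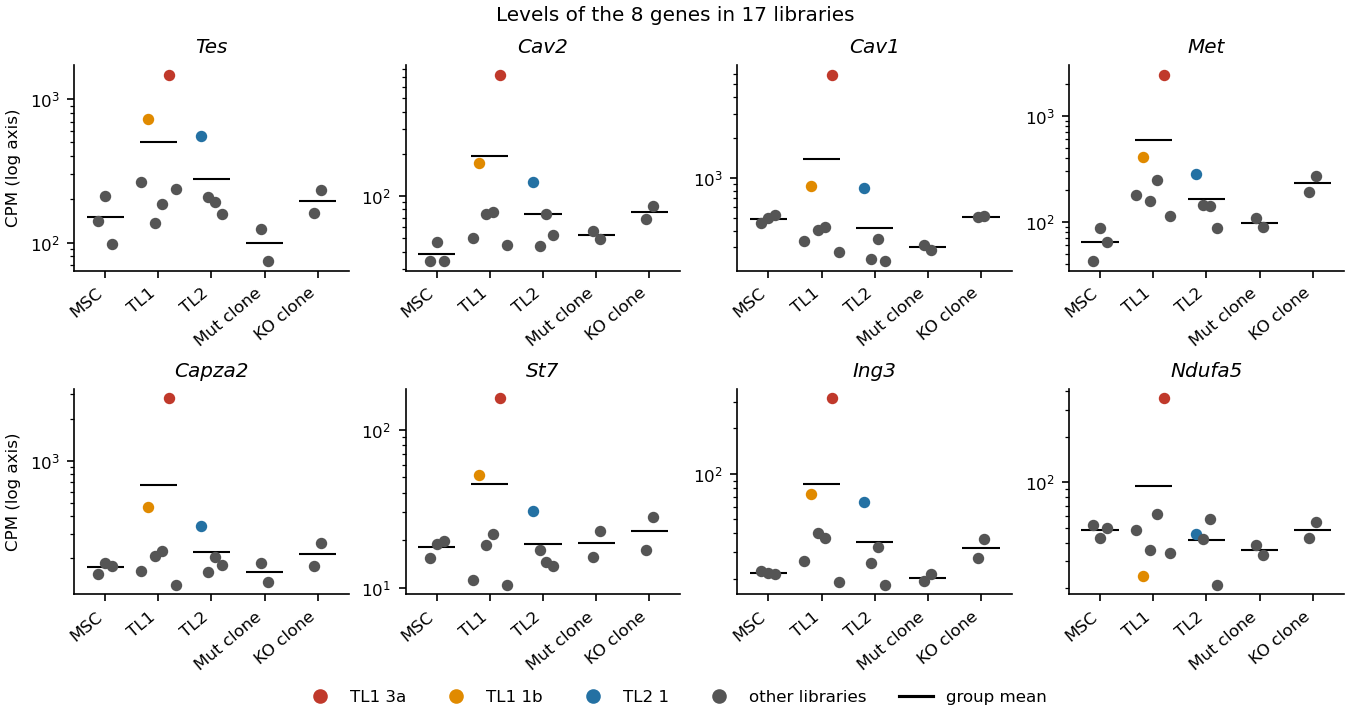
CPM of each of the 8 genes on a log axis, 1 point per library, in the 5 groups, with the group mean as a line. TL1 3a (red) is the highest library in every panel, and the TL1 mean lies above all other TL1 libraries, or all but TL1 1b, because of it.

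Met was at 2440.2 CPM in TL1 3a, 406 in TL1 1b, 247 in TL1 2b, 178 in TL1 1a, 158 in TL1 2a and 113 in TL1 3b. In TL2 it was at 280 CPM in TL2 1, 143 in TL2 2a, 140.4 in TL2 2b and 88.1 in TL2 3. MSC libraries held 42.3, 86.6 and 64.3 CPM, Mut clones 107 and 88.7, and KO clones 191 and 272. Every TL1 and TL2 library was thus above all 3 MSC libraries, and both KO clones were above both Mut clones. Met was chosen on its levels in these libraries, and the share of all genes that separate in these ways was not counted. Nothing is read from this order. The TL1 mean was 590.4 ± 912 CPM (SD, n = 6) with TL1 3a and 220.5 ± 115 (n = 5) without it. In order of their means without that library, Met was highest in KO clones (232 ± 57.2 CPM, n = 2), then TL1, TL2 (163 ± 81.9, n = 4), Mut clones (98.0 ± 13.1, n = 2) and MSC (64.4 ± 22.2, n = 3). The libraries of KO clones and TL1, of TL1 and TL2, and of TL2 and Mut clones overlapped, whereas the Mut clones lay just above the highest MSC library.

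Cav1, the main structural protein of caveolae, was the most abundant of the 8 per length of transcript in every group, at a mean of 143 CPM per kilobase of exon in MSC and 87.2 in Mut clones. In TL1 3a it reached 5932 CPM, against 873 in TL1 1b and 841 in TL2 1. The remaining TL1 libraries lay between 279 and 429 CPM and the remaining TL2 libraries between 236 and 349. These 7 tumour lines were all below the lowest MSC library (456 CPM, with the others at 497 and 527), whereas their Met was above all MSC libraries. They are what remains once TL1 3a, TL1 1b and TL2 1, the lines with the highest Cav1, are set aside. Their low position thus follows in part from that split, and nothing is read from it. KO clones held 505 and 513 CPM and Mut clones 312 and 288.

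Cav2, the partner that assembles with caveolin-1, was at 734 CPM in TL1 3a, 171 in TL1 1b and 125 in TL2 1. The other TL1 libraries lay between 44.5 and 76.9 CPM, the other TL2 libraries between 43.6 and 74.4, and the MSC libraries at 34.2, 46.5 and 34.4. In the lines that did not raise the run, Cav1 lay below the MSC libraries and its neighbour Cav2 within or above their range. Those lines were set apart on the levels of these genes, and the difference was not tested. KO clones held 67.9 and 84.8 CPM and Mut clones 56.2 and 49.6.

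Tes had the smallest deviation of the 8 in TL1 3a and the largest in TL1 1b and TL2 1. It was at 1489 CPM in TL1 3a, 730.0 in TL1 1b and 556 in TL2 1, and the other TL1 and TL2 libraries held 136 to 263 CPM. MSC libraries held 142, 212 and 97.5 CPM, 2 of them within that range. KO clones held 160.4 and 232 CPM and Mut clones 124 and 74.0. Capza2, the capping protein subunit on the other side of Met, was at 2803 CPM in TL1 3a, 466 in TL1 1b and 343 in TL2 1, while all other libraries of the series lay between 128 and 256. St7 was the least abundant per length, at a mean of 1.99 CPM per kilobase in MSC. It reached 159 CPM in TL1 3a, 51.4 in TL1 1b and 30.5 in TL2 1, with 10.4 to 28.2 in all others.

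Ing3 and Ndufa5 lie 4.49 and 7.06 Mb beyond the start of Met, and they differed in TL1 1b. Ing3 was at 317 CPM in TL1 3a, 73.4 in TL1 1b and 64.9 in TL2 1, above the 18.1 to 40.5 of the other 14 libraries. Ndufa5 was at 359.9 CPM in TL1 3a, but at 23.9 in TL1 1b and 45.5 in TL2 1, where the other libraries held 20.9 to 62.1. Its log2 deviation in TL1 1b was -0.88, and it was the only member with a negative deviation there.

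The 42 genes that lie between 12 and 30 Mb on chromosome 6 and had a mean of at least 1 CPM, of which 34 are not among the 8, show where the raised stretch began and ended in each line. In TL1 3a, 15 neighbouring genes in a row were raised, from Tes at 17.07 Mb to Wasl, which activates actin branching, at 24.61 Mb. They include Naa38 (read here as the gene now named Lsm8, because the table also lists Lsmd1, the older name of the present Naa38), Tspan12, Cped1, Fam3c, Ptprz1 and Lmod2 beside the 8. Cped1 reached 250.2 CPM there, Fam3c, a secreted cytokine-like protein, 662, and Wasl 812. On the near side the next gene, Mdfic, had a log2 deviation of 0.88, and on the far side the next gene, Pot1a, one of 0.43. Outside this stretch, Thsd7a, Gcc1, Ccdc136, Tspan33 and Strip2 were also raised in TL1 3a, each singly or between genes that were not.

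The stretch in TL1 1b began at a lower coordinate and ended earlier. There, 14 genes in a row were raised, from Tmem106b at 13.07 Mb through Tmem168, B630005N14Rik (now Bmt2), Gpr85, 2610001J05Rik, 1110019D14Rik, Mdfic and the first 6 of the 8 genes to Naa38 at 18.85 Mb; without Naa38, whose position rests on that reading, the stretch would end at St7. The gene before, Thsd7a, had a log2 deviation of -0.98. Beyond Naa38, Tspan12 (-0.45) and Cped1 (0.90) were not raised, whereas Ing3 (1.5) and Fam3c (1.42) were, and Ptprz1, Ndufa5, Lmod2 and Wasl all had negative values.

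The stretches given next were set after these values were seen, with borders where genes crossed the 2-fold limit in TL1 3a or TL1 1b. Their counts follow in part from those borders and are a description only. From Tes to Fam3c (5.29 Mb, 11 genes), the median log2 deviation was 3.62 in TL1 3a with 11 of 11 genes raised, 1.42 in TL1 1b with 9 of 11, 0.98 in TL2 1 with 5 of 11, and -0.26 in TL1 1a with 0 of 11. From Tmem106b to Mdfic (2.73 Mb, 7 genes), TL1 1b raised 7 of 7 (median 1.73), TL2 1 2 of 7 (median 0.62) and TL1 3a 0 of 7 (median 0.55). In TL1 3a, Tmem106b (0.89), Gpr85 (0.87) and Mdfic (0.88) lay just under the limit, and the lowest of the 7 was at -0.41. From Ptprz1 to Wasl (1.79 Mb, 4 genes), TL1 3a raised 4 of 4 (median 4.78) and TL1 1b and TL2 1 none. That median takes in Ptprz1 and Lmod2, which were under 1 CPM in most libraries. Ptprz1, a receptor phosphatase, was at 6.98 CPM in TL1 3a but at 9.60 and 12.4 in MSC 1 and MSC 2, and Cped1 of the stretch before was also raised in all 3 MSC libraries and in TL2 3. All 3 lines raised Tes, Cav2, Cav1, Naa38 and Ing3, while Met in TL2 1, at a log2 deviation of 0.98, lay just under the 2-fold limit and near that of KO clone 2 (0.94). In TL2 1 the longest unbroken raised stretch held 3 genes, Tes, Cav2 and Cav1. TL2 1 also raised 2610001J05Rik and 1110019D14Rik of the lower stretch and, outside these stretches, Fam71f1 and Tspan33.

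**Figure D2:**
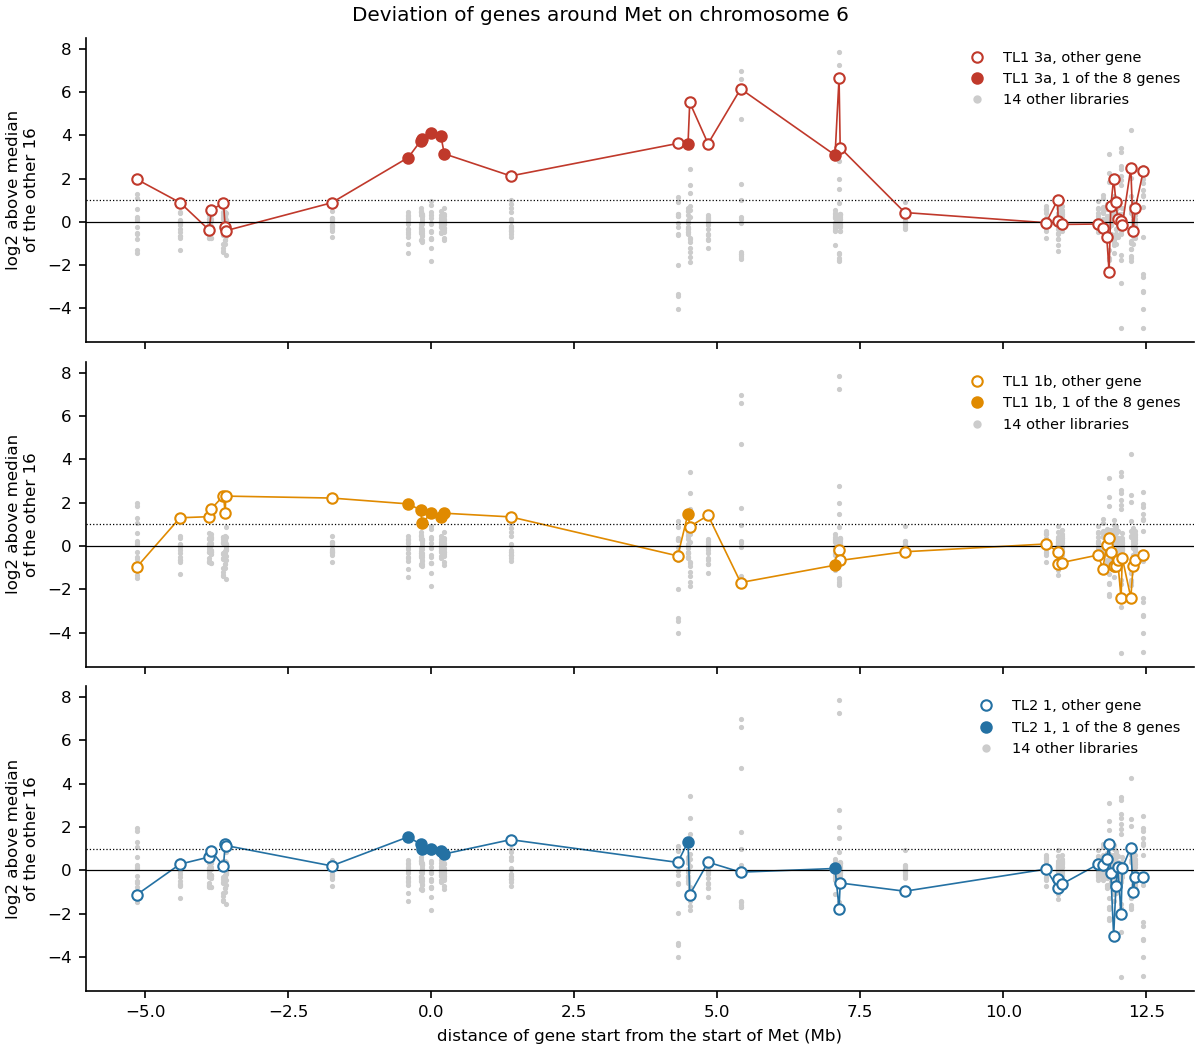
Log2 deviation of each of 42 expressed genes from the median of the other 16 libraries, against the distance of its start from the start of Met in Mb, in TL1 3a, TL1 1b and TL2 1, with the other 14 libraries in grey. The line for TL1 3a is above 1 (dotted) from Tes to Wasl without a break, that for TL1 1b from Tmem106b to Naa38, and that for TL2 1 stays near 1 around Met.

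Of the 34 genes in the window outside the 8, 12 were raised in TL1 3a, 9 in TL1 1b and 5 in TL2 1, and of the 557 other genes of chromosome 6, 12.4%, 7.18% and 4.67%. Lmod2, a muscle protein that nucleates actin, was also raised in both KO clones, at 15.7 and 23.9 CPM. It passed the 2-fold limit in TL1 1a, TL1 2b and MSC 1 too, but at 0.374, 0.675 and 0.251 CPM, which rest on few counts. None of the 8 genes was raised in any of these libraries. The summed level of the skeletal muscle markers Myod1, Myog and Des was 2372 CPM in TL1 3a, 1867 in TL1 1a, 1701 and 989.6 in the KO clones and 0.395 to 0.578 in the Mut clones. In TL1 1b it was 538 CPM and in TL2 1 134. Most of the sum in TL1 3a and TL1 1a was Des, and Myog was at 267 CPM in TL1 3a and 21.3 in TL1 1a. The part of these genes in the levels of the 8 was not tested.

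The levels of the 8 genes moved together across libraries mainly through these lines. Over the 28 pairs of the 8 genes, the median Pearson correlation of log2 CPM was 0.86 over 17 libraries (0.53 to 0.97), and 0.42 over the 14 libraries without TL1 3a, TL1 1b and TL2 1 (-0.36 to 0.84). Among 10212 genes whose mean reached 5 CPM, the 10 most like Met over all 17 libraries were Cav2 (r = 0.954), Ing3 (0.928), Capza2 (0.90), Naa38 (0.858), Tes (0.853), St7 (0.837), Slc44a2 (0.833), Cav1 (0.816), Zfp236 (0.805) and Sh3glb1 (0.769). Thus 7 of the 10 lie in the window on chromosome 6, and Ndufa5 came at rank 52. Without TL1 3a and TL1 1b, the 2 libraries with the highest Met, none of the 10 most like Met lay in the window. They were Chrnb1 (r = 0.929), Epb4.1l4a, Msln, Nploc4, Eno3, N4bp3, Ctnna1, Tpst2, Mast2 and Mfap3l (0.869), and Cav2 came at rank 23 (0.852), Ing3 at 233 (0.747), Capza2 at 654 (0.651), Tes at 937 (0.607), St7 at 2467 (0.387), Cav1 at 3154 (0.297) and Ndufa5 at 3254 (0.283). By Spearman's rho over all 17 libraries, the 10 most like Met held 1 of the other members, Cav2 at rank 7 (0.863), and Ing3 came at rank 16 (0.833). The high ranks of most neighbours thus depended on TL1 3a and TL1 1b. The 15 libraries without those 2 still held TL2 1, in which Cav2 and Ing3 were raised. Since the 8 genes were chosen for being high together in such lines, their likeness to Met follows in part from the choice. Nothing is read from it.

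Runs of high neighbouring genes around Yap1 on chromosome 9 and around Myc and Pvt1 on chromosome 15 also occur in this series. Yap1, a coactivator of the Hippo pathway, was raised in 7 of the 14 tumour-derived libraries: TL1 1a, 2a and 2b, TL2 2a and 2b, and both KO clones. Myc and its neighbour Pvt1 were both raised in 4: TL1 3b, TL2 3 and both Mut clones. Each of the 14 had exactly 1 of the 3 runs, and no MSC library had any, by a rule set after the values were seen. That rule differs between the runs. It asks for at least 4 of the 8 genes on chromosome 6, Yap1 alone on chromosome 9, and Myc and Pvt1 on chromosome 15. Of 8 chromosome 9 genes, 2 were raised in TL1 3a, 1 in TL1 1b, 2 in MSC 3 and 1 each in MSC 1 and MSC 2. Fam84b of the chromosome 15 run was at 4.81 CPM in TL1 3b, against 964 to 1822 in TL2 3 and the Mut clones. It was also raised in TL1 2a and KO clone 2. TL2 1, with 4 raised members, lies at the limit for chromosome 6. Scaled by library totals it raised 3, and would then fall outside the rule. With a limit of 3-fold for the chromosome 6 genes, TL2 1 raised 0 and TL1 1b 2, and both would. In TL1 3a, Yap1 was at 186 CPM, within the 173 to 205 of MSC, and Myc at 133 CPM, below the 148 to 181 of MSC. In TL1 1b, Yap1 was at 172.5 CPM and Myc at 207.

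**Figure D3:**
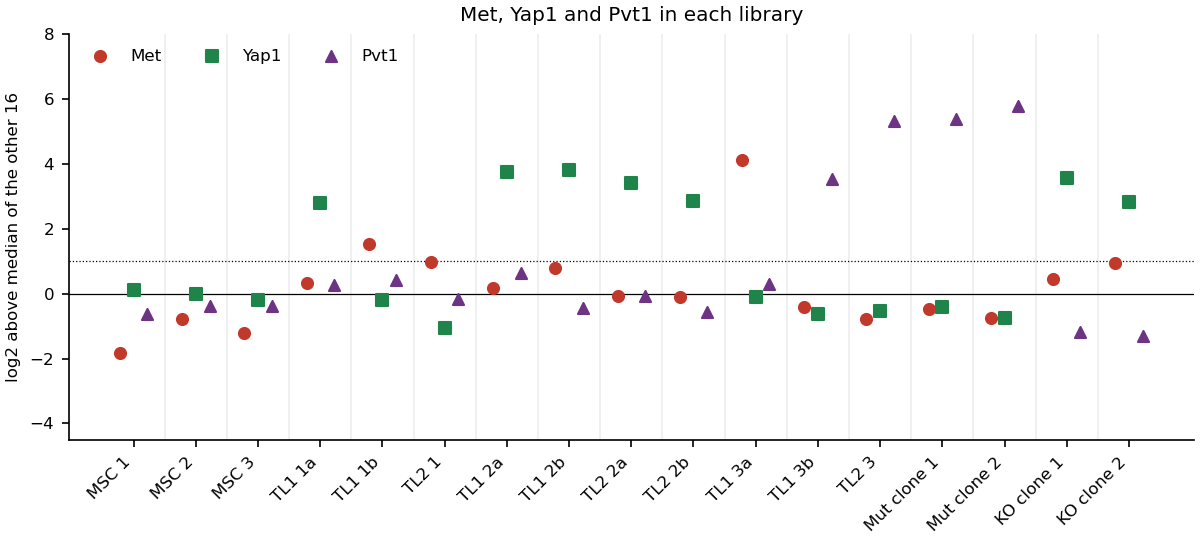
Log2 deviation of Met, Yap1 and Pvt1 from the median of the other 16 libraries, for each of 17 libraries. Values of Yap1 above 2 and of Pvt1 above 3 fall in different libraries from each other and from the highest values of Met, in TL1 3a and TL1 1b.

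Tumour lines were compared with MSC to ask how the lines differ from the cells they arose from. None of the 8 genes was called in this comparison. The lines on whose high levels the genes were chosen are all on the tumour side, so the direction of these changes follows in part from the choice and nothing is read from it. The 8 log2 changes were positive with a median of 1.28, and 6 were positive with a median of 0.62 without TL1 3a. Over all 13262 genes tested the median was 0.10. Met had the largest, 2.31 (SE 0.952, edgeR adjusted p = 0.145), followed by Cav2 (1.68, SE 0.842), Ing3 (1.37), Tes (1.36), Capza2 (1.20), St7 (0.74), Cav1 (0.66) and Ndufa5 (0.41). Only Met had an unadjusted p under 0.05. Of all genes tested, 3.86% were called higher and 4.79% lower, and 3507 had an unadjusted p under 0.05. Without TL1 3a, Met was called higher, with a smaller change of 1.59 (SE 0.448, edgeR adjusted p = 0.041), Cav2 was at 1.07, Tes at 1.00, Ing3 at 0.80, Capza2 at 0.45 and St7 at 0.23, and Cav1 and Ndufa5 turned negative (-0.13 and -0.20). DESeq2 also called Met (log2 change 2.27, adjusted p = 0.0216). It gave no usable adjusted p for Cav1, and called none of the rest of the 8.

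Second-generation lines were compared with first-generation lines. All 8 changes in TL2 minus TL1 were negative, from -1.86 (Met, SE 0.852) to -0.85 (Tes, SE 0.668), with a median of -1.32 against 0.02 over all genes. The lines on whose high levels the genes were chosen include TL1 3a and TL1 1b. The direction of these changes therefore follows in part from the choice, and nothing is read from it. None was called, and no gene of the 13262 was called either, 0.0% in each direction, while 246 had an unadjusted p under 0.05, Met among them. DESeq2 called 3 genes, all lower and none of the 8. Without TL1 3a the median of the 8 was -0.13, with Met at -0.42 (SE 0.409) and Ndufa5 at 0.03, so the sizes of these changes rest on that library. With the title number as a replicate block, the paired fit gave a median of -0.87 and values from -1.20 (Met) to -0.58, and no member had an unadjusted p under 0.05.

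KO clones were compared with Mut clones to ask what changes when mutant p53 is lost. Met was higher in KO clones by a log2 change of 1.26 (SE 0.251, edgeR adjusted p = 0.0148), from 98.0 ± 13.1 to 232 ± 57.2 CPM, and Cav1 by 0.77 (SE 0.192, adjusted p = 0.0292), from 300.3 ± 16.9 to 509 ± 5.95 CPM (SD, n = 2 each). The other 6 were not called, at 1.00 for Tes (SE 0.320, adjusted p = 0.0634), 0.67 for Ing3, 0.54 for Cav2, 0.45 for Ndufa5, 0.44 for Capza2 and 0.26 for St7. Thus 2 of the 8 were called higher and 0 lower, where 14.2% of 12238 genes were called higher and 12% lower. The median change of the 8 was 0.60, against 0.00 over all genes. Scaled by library totals, the median of all genes shifted by -0.135, all 8 changes remained positive and Met alone was called (1.12, adjusted p = 0.0199). Without either Mut clone, or without KO clone 2, none of the 8 was called, and without KO clone 1 only Met was; such fits assume that the lone clone varies like the pair. The clone groups also differed in Yap1 (log2 change 3.75), Myc (-3.76) and Pvt1 (-6.67) and in the muscle markers given above, and the part of these in the levels of Met and Cav1 was not tested.

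**Figure D4:**
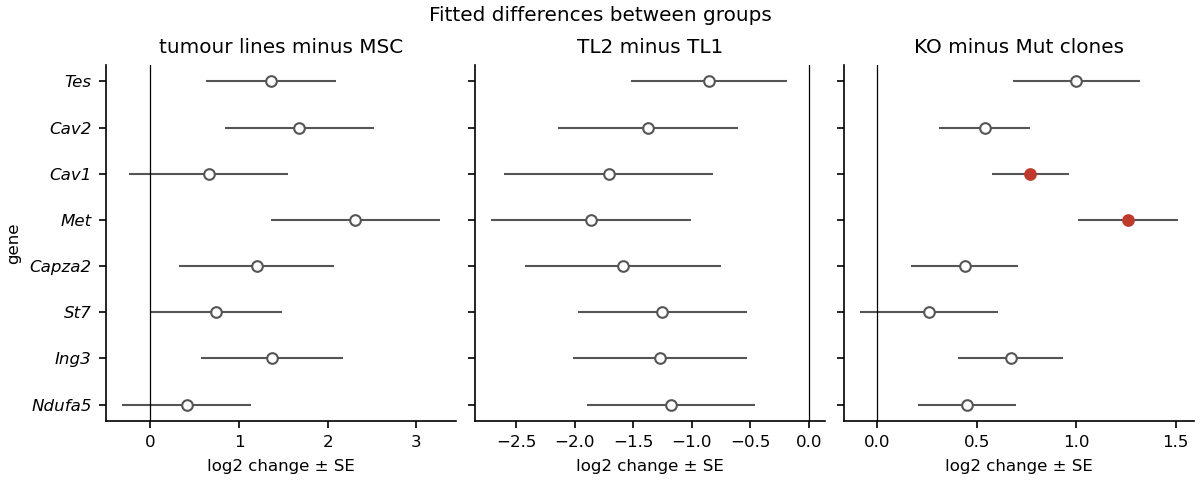
Fitted log2 change with its standard error for each of the 8 genes in the 3 comparisons; filled red points passed an edgeR adjusted p of 0.05. All points lie above 0 for tumour lines minus MSC and for KO minus Mut clones and below 0 for TL2 minus TL1, and the filled points are Met and Cav1 in the clones.

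The ligand of Met differed from its receptor in where it was expressed. Hgf was at 24.2, 20.8 and 129.7 CPM in MSC. It was at 29.1 CPM in TL1 1a, 26.9 in TL1 1b, 27.2 in TL1 3a and 9.98 in TL2 1, and at 3.08 CPM or less in the other 6 tumour lines and in all 4 clones. TL1 3a, TL1 1b and TL2 1 thus had Hgf RNA, as did TL1 1a, which raised none of the 8 genes. The log2 change of Hgf in tumour lines minus MSC was -3.08 (SE 1.226, edgeR adjusted p = 0.133). Hgf had too few counts to be tested in the clones, and Mst1r, the receptor related to Met, reached at most 1.47 CPM (TL1 3a) and was tested in no comparison.

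Of 31 tested genes of HGF and MET signalling (Met itself not counted), 0 were called higher and 4 lower in tumour lines than in MSC (median log2 change 0.03). Of all genes, 3.86% were called higher and 4.79% lower. The 4 were Timp3, a protease inhibitor (-2.23, SE 0.506), Cblb, a ubiquitin ligase that acts on receptors (-1.72), Pik3r1, a PI3K regulatory subunit (-1.37), and the adaptor Shc1 (-0.60). In the clones, 9 of 29 were higher in KO and 1 lower (median 0.17), where 14.2% of all genes were called higher and 12% lower. The largest changes were those of Plxnb1, a semaphorin receptor that associates with Met (5.80, SE 0.529), the coreceptor Nrp1 (5.23, SE 0.311), the integrin Itgb4 (3.92, SE 0.590) and Timp3 (1.58). In single lines, 5 of 31 were raised in TL1 3a (Hgf, Spint1, Plxnb1, Nrp1 and Itgb4) and 4 each in TL1 1b and TL2 1 (Hgf, Spint1, Gab1 and Pik3ca in both), beside 15.2%, 8.76% and 7.08% of all genes, so the count in TL1 3a is near the background. Without TL1 3a (5.37 CPM) or without TL1 1b (4.31 CPM), the mean of Spint1 would fall under the 1 CPM needed to be counted. At least 2-fold below the other libraries were 0 of the 31 in TL1 3a, 2 in TL1 1b and 6 in TL2 1. The share of all genes that low was not counted, for this list or the others.

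Among genes that respond to MET and ERK signalling, 5 of 25 were called higher and 0 lower in tumour lines than in MSC (median 1.09), where 3.86% of all genes were called higher and 4.79% lower. Areg, a ligand of the EGF receptor, went from 0.213 ± 0.0401 CPM (n = 3) to 2.11 ± 0.885 (n = 10), a log2 change of 3.32 (SE 0.606). Dusp4, an ERK phosphatase, changed by 2.69, the transcription factor Etv4 by 2.46 and Phlda1 by 1.66. Ier3 was also called. In the clones, where Met was higher in KO, 12 of 23 of these genes were lower in KO and 2 higher (median -1.49), where 12% of all genes were called lower and 14.2% higher. Ereg had 1 count over the KO clones against 122 over the Mut clones, a ratio of 117 (95% counting interval 20.5 to 4645). Myc, also among the 12, was lower by a log2 change of -3.76. It belongs to the chromosome 15 run that was raised in both Mut clones. The 2 higher genes were Spry1, a feedback inhibitor of receptor kinases (3.92, SE 0.623), and Plau, the urokinase protease (3.91, SE 0.265). In single lines, 7 of 25 were raised in TL1 3a (Mmp9, Etv1, Spry4, Egr1, Dusp6, Mmp3 and Spry2), 5 in TL1 1b and 6 in TL2 1. These counts stand beside 15.2%, 8.76% and 7.08% of all genes. At least 2-fold below the other libraries were 3 of the 25 in TL1 3a, 0 in TL1 1b and 0 in TL2 1. Mmp9 reached the mean of 1 CPM needed to be counted only through TL1 3a (16.3 CPM), so nothing is read from its rise there. Mmp3 was at only 0.838 CPM in TL1 3a. Spry4 was raised in all 3 lines, but it was also raised in TL1 1a, TL1 3b, TL2 3 and Mut clone 2.

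Of 14 tested caveolar genes, 2 were called higher (Ehd4, 1.33, and Pacsin2, 1.09) and 1 lower (Ehd2, -1.47, an ATPase at the caveolar neck) in tumour lines than in MSC, with a median of 0.19. The shares over all genes were 3.86% higher and 4.79% lower. In KO clones 4 of 13 were higher and 0 lower (median 0.54), where 14.2% of all genes were called higher and 12% lower. Cav3, the muscle caveolin, had 246 counts there and 0 in the Mut clones, at least 85.8-fold higher taken against 3 counts over the group. Murc, the muscle cavin, was at 110.1 CPM against 5.46, Pacsin3 changed by 1.23, and Cav1 is the fourth. Of the 12 expressed caveolar genes that are not among the 8, 2 were raised in TL1 3a (Ror1 and Cav3), 1 in TL1 1b (Sdpr) and 2 in TL2 1 (Sdpr and Murc), beside shares over all genes of 15.2%, 8.76% and 7.08%. Without TL1 3a (3.77 CPM), the mean of Ror1 would fall under the 1 CPM needed to be counted. At least 2-fold below the other libraries were 3 caveolar genes in TL1 3a (Ptrf, Sdpr and Prkcdbp, at log2 deviations of -1.08, -2.06 and -1.46), 3 in TL1 1b and 2 in TL2 1.

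The partners of the other members are given beside the shares of all genes called. These shares were 3.86% higher and 4.79% lower in tumour lines than in MSC, and 14.2% higher and 12% lower in KO clones. Of 18 genes of actin capping and testin partners, 2 were higher (Capg, 1.36, and Pxn, 1.22) and 2 lower (Lrrc16a, -1.20, and Rcsd1) in tumour lines than in MSC. Rcsd1, a regulator of capping protein, had 2 counts over the tumour lines against 57 over MSC, a ratio of 110.4 (95% counting interval 29.2 to 934). In KO clones 3 of 17 were higher, near the share over all genes, and 0 lower. The 3 were Cobl, an actin nucleator (8.04, SE 0.466), and the focal adhesion proteins Vcl (1.63) and Zyx (1.40), which binds testin. Of 18 NuA4 genes, Vps72 (0.65) was called higher in tumour lines, and in KO clones Morf4l1 (0.77) was higher and Ruvbl2 (-1.41) lower. Of 36 complex I genes, Ndufb5 (0.66) was higher and Ndufa3 (-1.25) lower in tumour lines, and Ndufb2 (1.33) and Ndufb7 (1.31) were higher in KO clones. In TL1 3a 0 of 17 other NuA4 genes and 0 of 35 other complex I genes were raised beside Ing3 and Ndufa5, where 15.2% of all genes were. At least 2-fold below the other libraries there were 4 of these NuA4 genes (Ruvbl1, Yeats4, Ruvbl2 and Actl6a) and 1 of these complex I genes. No gene of any of the 6 lists was called between TL2 and TL1.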

How the data were processed

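The authors deposited raw counts, 1 whole number for each gene symbol and library. The submitters' processing notes name TopHat2 2.0.10 and HTSeq 0.6.1p1, and also cutadapt, DESeq2 1.6.3 and the build mm10. Which gene annotation and strand setting were used is not given in the sources used here. In the table, 4 columns match no sample and were not used. Per the labels' protocols, reads were single-end, of 60 bases.

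Members, lists and tests were chosen with earlier results of these data known. Group comparisons used edgeR 4.0.16 in R 4.3.3 (quasi-likelihood test, TMM scaling, filtering by expression, robust estimation, Benjamini-Hochberg adjustment over all genes), with genes under an adjusted p of 0.05 called. Tumour lines minus MSC (the mean of TL1 and TL2) and TL2 minus TL1 came from 1 fit of 13 libraries, and KO minus Mut from 4. Alternatives were DESeq2 1.42.0, other scalings, no filter, each library left out and a replicate block. Deviations are log2 CPM with a prior count of 0.5 minus the median of the other 16 libraries. The fits were tested on simulated data.

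The numbers in the titles were checked for pairing. Deviations of TL1 and TL2 from their group means correlated within a number at r = 0.459, 0.374 and 0.504. This met the limit of 0.1 for every number, so TL1 and TL2 count as paired. The values given come from the fit without the block, and the blocked changes of the members in TL2 minus TL1 are given beside them. In tumour lines minus MSC the blocked fit gave the 8 genes a median log2 change of 1.06 (0.29 to 2.14). That block also took in the MSC libraries by their numbers. For MSC with TL1 r was 0.009, 0.043 and 0.159, and for MSC with TL2 0.213, -0.029 and 0.184.

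Positions come from RefSeq GRCm38.p6, where 23259 symbols matched, 1689 through a synonym, and exon lengths and antisense genes from GENCODE. Named genes are the 8 members, Trp53, the raised genes of the window and their nearest unraised neighbours, Hgf, Mst1r, up to 4 called genes per list and comparison with the largest change, and the 10 genes most like Met. Other list genes named were chosen after their values were seen. Bounds and intervals cover counting error only.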

Additional observations from a re-analysis of the deposited data

Results flagged for a closer look

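The members and their neighbours were chosen or named on their levels, so no outlier test was made of them. Dixon's test was made on CPM in 4 groups of values (Hgf and Trp53, each in the 6 TL1 and the 4 TL2 libraries). In 1 group, the gap of a library to the nearest other exceeded the 95% critical value. Chance exceeds that value in about 1 in 20 groups only if the values are normally distributed. This was not checked, and log2 values were not tested. The library was TL2 1, with Hgf at 9.98 CPM against 1.26 in the next highest TL2 library.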

How the results depend on the processing

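No called result changed direction under any alternative run. Of 350 values of the members' log2 changes between groups, 339 kept their side of the threshold, 8 lost a call and 3 gained one. DESeq2 called 2208 genes in tumour lines minus MSC (1167 higher, 1041 lower), 1 of them a member, and 3 genes in TL2 minus TL1. With a replicate block, 1686 genes (718 higher, 968 lower) and 0 members were called in tumour lines minus MSC, and 0 genes in TL2 minus TL1; for the paired groups it changed no member's call. Scaled by library totals, 55.4% of calls in tumour lines minus MSC were higher, against 44.6% with TMM, and in KO minus Mut 44.8% against 54.2%, with 1 member called. Leaving out 1 library at a time gave 304 to 1532 genes and 0 to 1 members in tumour lines minus MSC (304 without MSC 3, 349 without MSC 1, 687 without MSC 2, 1532 without TL1 3a), and 1347 to 1755 genes and 0 to 1 members in KO minus Mut. At 3-fold, TL1 1b raised 2 members and TL2 1 0, and at 1.5-fold TL2 1 raised 7, so the count in TL2 1 hangs on the threshold. With no minimum level, 17 (TL1 1b), 11 (TL2 1) and 31 (TL1 3a) of 76 other genes of the window were raised; with a mean of at least 5 CPM, 2 of 27 were raised in TL2 1. Levels under about 1 CPM rest on few counts. The clone comparison has 2 libraries a group.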

Other observations

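Windows of 10 expressed neighbouring genes were placed along all chromosomes, and their median log2 deviation was taken in TL1 3a, TL1 1b and TL2 1. In TL1 3a, 178 of 12231 windows had a median of at least 1, on 16 chromosomes, 35 of them on chromosome 6, and 34 had one of at least 2, on 5 chromosomes, 15 of them on chromosome 6. The highest was 3.72 on chromosome 6. In TL1 1b, 168 windows had a median of at least 1, with 123 on chromosome 8 and 20 on chromosome 6. In TL2 1, 157 windows had one, with 153 on chromosome 8 and 1 on chromosome 6. Both lines of number 1 that raised genes around Met therefore also had most of their high windows on chromosome 8, which TL1 3a did not share. These windows overlap and are not independent, and no test was made of them.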
